A study of Mus musculus with 4 samples.

Results

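The Zbtb family of transcription factors was followed through 1 h of BMP6 stimulation in adult muscle stem cells (MuSCs). Its members were taken as every entry of the expression table whose gene name is Zbtb followed by a number and at most 1 letter, which gave 38 of 55267 entries. Of these, 27 had a mean of at least 1 TPM (transcripts-per-million, a level scaled to transcript length and to the size of the library) over the 4 libraries and were tested, and 11 were below that level. All 38 are protein-coding genes in GENCODE M39. At the study's thresholds of fold and adjusted p, applied here to a limma fit on TPM, Zbtb1 and Zbtb2 rose after BMP6. Their differences were 1.40 and 1.32 on the log2(TPM + 1) scale, and their mean TPM rose 3.1-fold and 2.8-fold. The difference of each of the other 25 tested members lay between -0.32 and 0.56 on that log2 scale.

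Zbtb proteins join an N-terminal BTB domain to C2H2 zinc fingers near the C-terminus. The BTB domain forms dimers and binds corepressors such as NCOR1, BCOR and SIN3A with their histone deacetylases, and the fingers choose the DNA sequence, so most members are studied as repressors of transcription. They are best known for directing cell fate in blood and lymphocytes, for control of the cell cycle through p53 and p21, and for binding methylated DNA. BMPs act through receptor kinases that phosphorylate SMAD1 and SMAD5. These enter the nucleus with SMAD4 and activate genes such as Id1 within the hour.

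MuSCs came from limb, back and breast muscles of 9-week-old female mice of the strain C57BL/6N(Tg(Pax7-EGFP)Tajb), in which a green fluorescent reporter marks cells that use the Pax7 gene, and were sorted for that reporter after 1 day in culture. All cells of both groups were then grown further and kept for 6 h without serum in 200 ng/mL of a soluble BMP receptor, so the controls are cells depleted of BMP and not cells in growth medium. The BMP6 group received 100 ng/mL BMP6 and the control group received the vehicle (4 mM HCl with 0.1% BSA), both for 1 h. There were 2 biological replicates in each group, and in the labels each replicate number is a batch that holds a BMP6 and a control library. The labels do not tie a replicate to an animal, so p-values measure the spread between these libraries.

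Rebuilt read numbers differed little, at between 108100000 and 112000000 per library. The myogenic genes Pax7 (8.29 to 11.7 TPM) and Myod1 (536 to 631 TPM) were present in all libraries, as was Myog (4400 to 5472 TPM), a gene of differentiating myoblasts. Of the 5 muscle markers, Myf5 had 111.3 to 171.2 TPM and Des had 951.8 and 807.5 TPM after BMP6 against 1120 and 955.4 TPM in controls. Des was lower in both pairs (log2 fold change -0.24, limma adjusted p = 1.00 without and 0.0312 with the replicate block), and its part in other results was not tested. Of 6 immune markers the highest level was 1.68 TPM (Cd68), with a sum of 1.11 to 2.42 TPM per library, and Cd3d was listed at 0 throughout. All 4 endothelial markers stayed at or under 0.143 TPM with Kdr at 0, and the Schwann cell marker Sox10 at or under 0.115 TPM. Pericyte markers summed to 5.04 to 5.58 TPM, and the fibroblast markers, mainly Col1a1 and Col3a1, to 105 to 174 TPM. In bulk RNA, fewer cells of a type and less RNA per cell cannot be told apart.

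The family spanned a wide range of levels. Mean TPM of the 27 tested members ran from 1.19 (Zbtb4) to 31.0 (Zbtb38), with a median of 5.84. The most abundant were Zbtb38, a protein that binds methylated DNA, then Zbtb20, known for its role in the hippocampus and liver, Zbtb25, Zbtb17 and the entry named Zbtb9. That entry also holds transcripts of Ggnbp1 and Gm50253, and the Zbtb9 transcript alone had a mean of 10.1 TPM, under the 10.9 TPM of Zbtb21. Zbtb17 encodes MIZ1, the zinc finger partner through which MYC represses genes. Summed over all members, TPM was 239.1 and 270.8 in BMP6 replicates 1 and 2 and 205.3 and 218.5 in control replicates 1 and 2. Zbtb1 and Zbtb2 together made up 9.53% and 10.9% of that sum after BMP6, against 4.26% and 4.18% in controls. The family thus held a larger total in both BMP6 libraries, and without this pair of genes the sums were 216.3 and 241.2 after BMP6 and 196.5 and 209.4 in controls.

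Zbtb1 is needed in mice for the development of lymphocytes. It reached 9.85 and 13.2 TPM in BMP6 replicates 1 and 2, against 3.48 and 3.94 TPM in the controls. Both BMP6 libraries lay well above both controls, and Zbtb1 moved from rank 18 and 19 among the members in controls to rank 9 and 7 after BMP6. The control mean of 3.71 ± 0.332 TPM rose to 11.5 ± 2.35 TPM after BMP6 (n = 2 per group, ± SD). This is a log2 fold change of 1.40 on the log2(TPM + 1) scale (SE 0.18, limma with Benjamini-Hochberg adjusted p = 0.0931). Within same-numbered pairs the difference was 1.28 and 1.52 on that scale, which in TPM is 2.83-fold and 3.34-fold.

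Zbtb2 encodes a repressor of the p21 gene Cdkn1a and of the p53 pathway. It stood at 12.9 and 16.4 TPM after BMP6 and at 5.27 and 5.18 TPM in controls. The control libraries were almost equal, both far under the BMP6 libraries, and the gene went from rank 14 and 16 to rank 5 in both. The control mean of 5.22 ± 0.0612 TPM rose to 14.6 ± 2.42 TPM after BMP6 (n = 2 per group, ± SD). Its difference on the log2(TPM + 1) scale was 1.32 (SE 0.15, limma with Benjamini-Hochberg adjusted p = 0.0721), with 1.15 and 1.49 within the pairs. The difference was larger in the replicate 2 pair for both genes. By log2 fold change Zbtb1 was number 20 and Zbtb2 number 25 of the 10645 named genes tested, and they were numbers 1 and 2 of the family in each pair.

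**Figure D1:**
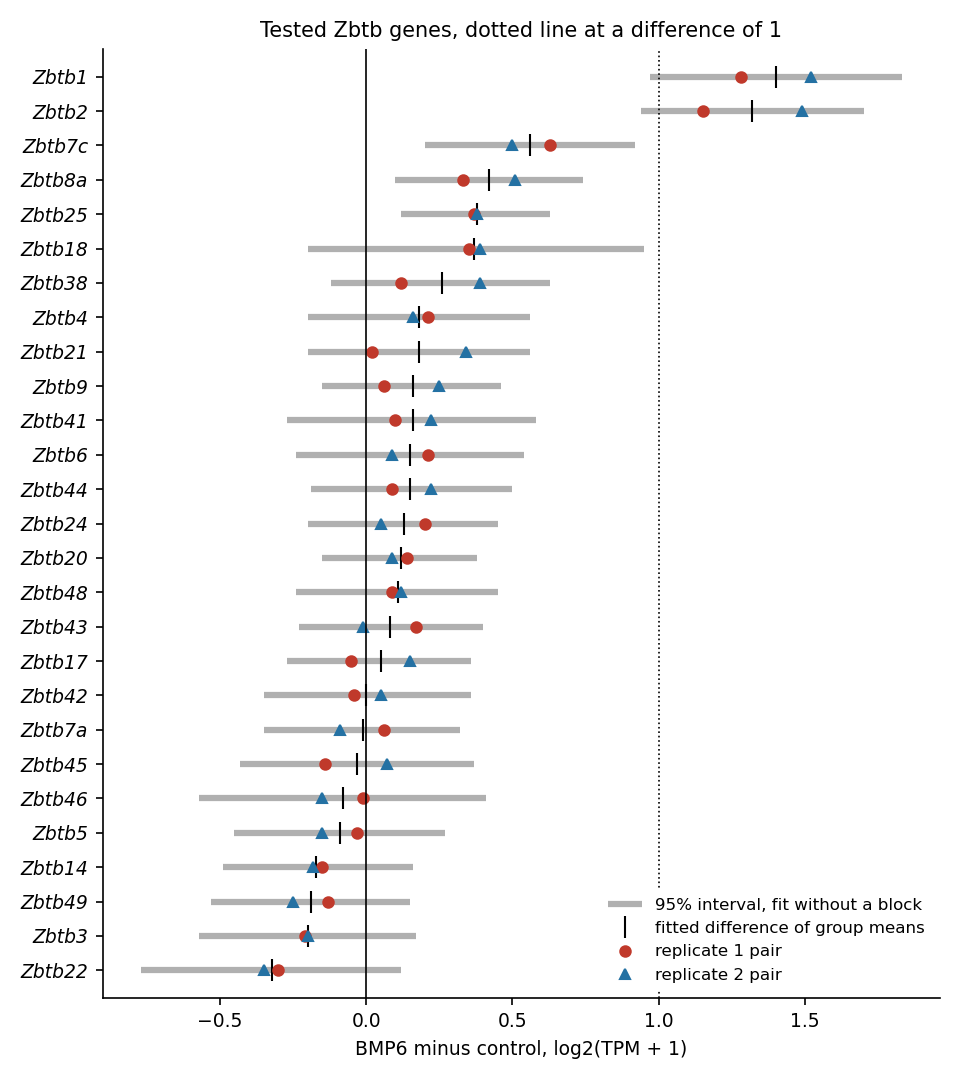
Difference between BMP6 and control for the 27 tested Zbtb genes on the log2(TPM + 1) scale, 1 row per gene, where circles and triangles are the replicate 1 and 2 pairs, ticks the fitted differences (n = 2 libraries per group) and grey bars their 95% intervals. Zbtb1 and Zbtb2 lie beyond a difference of 1 (dotted line) in both pairs, and the others reach at most 0.63 in either.

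With a call defined as a fold change of at least 2 on that scale and an adjusted p under 0.1, 2 of 27 members were called higher, against 0.225% of all named genes tested, and 0 were called lower, against 0% (limma with Benjamini-Hochberg adjustment). Zbtb1 and Zbtb2 were singled out with earlier results of these data known, so the share called higher is no test of the family. At an unadjusted p under 0.05 in limma, 5 members passed without regard to fold, all higher, against 3.12% of genes. They were Zbtb1, Zbtb2, Zbtb7c, Zbtb8a and Zbtb25. In voom on rebuilt reads the members called were again Zbtb1 and Zbtb2, against 0.169% of genes called higher, with 0 members and 0% of genes lower. The 95% intervals of the other 25 tested members all ended below a log2 fold change of 1 on that scale. The highest ended at 0.95 (Zbtb18). A doubling of TPM itself is less than 1 on that scale, and the intervals of Zbtb18 and Zbtb7c (ending at 0.92) still include it. The intervals of Zbtb1 (0.97 to 1.83) and Zbtb2 (0.94 to 1.70) began near 1.

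Same-numbered libraries are paired by the labels. With the replicate number as a block, Zbtb1 had an adjusted p of 0.000316 and Zbtb2 of 0.000542 (limma, Benjamini-Hochberg), and both were called, against 0.338% of genes called higher. In that fit 4 members were higher past the adjusted p without regard to fold, against 1.32% of genes, and 0 were lower, against 0.319% (4 of 27 in either direction, against 1.64%). Zbtb7c (adjusted p = 0.0499) and Zbtb25 (adjusted p = 0.0893) were the other two. At an unadjusted p under 0.05 with the block, 8 of 27 members passed, against 12.7% of genes, and Zbtb22 was the 1 among them that was lower. The calls of Zbtb1 and Zbtb2 without the block rest on few libraries. Without control replicate 1 both were lost (adjusted p = 0.21 and 0.16), without BMP6 replicate 2 that of Zbtb1 (0.104), without control replicate 2 that of Zbtb2 (0.11), and that of Zbtb1 with a filter at a mean TPM of 5 (0.128). Both were also lost with a pseudocount of 5, without a filter on low values and in eBayes without a trend.

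The sequence before the start of these 2 genes is shown because they rose together. Zbtb1 lies on chromosome 12 (76417040 to 76443724, plus strand) and Zbtb2 on chromosome 10 (4317075 to 4338108, minus strand) of GRCm39, as the deposited annotation gives them. The 250 bases before each deposited start, read from the GRCm39 genome in the direction of the gene, are as follows, with the SMAD4 element GTCT on either strand (AGAC on the other) and the GC-rich SMAD1/5 element GGCGCC in capitals.
Zbtb1, chr12:76416790-76417039, plus strand: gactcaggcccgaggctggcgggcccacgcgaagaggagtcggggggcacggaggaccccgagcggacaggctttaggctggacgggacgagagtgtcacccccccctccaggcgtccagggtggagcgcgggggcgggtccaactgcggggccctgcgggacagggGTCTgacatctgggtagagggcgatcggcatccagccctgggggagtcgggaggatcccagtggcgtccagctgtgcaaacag
Zbtb2, chr10:4338109-4338358, minus strand: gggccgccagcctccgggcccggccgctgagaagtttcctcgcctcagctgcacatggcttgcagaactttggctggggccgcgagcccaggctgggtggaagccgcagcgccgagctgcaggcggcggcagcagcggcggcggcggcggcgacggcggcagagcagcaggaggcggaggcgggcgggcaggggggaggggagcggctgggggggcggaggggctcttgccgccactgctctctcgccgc
The Zbtb1 stretch held 1 GTCT, which begins 83 bases before the start, and no GGCGCC. The Zbtb2 stretch held neither and was 77.2% G and C, against 71.2% for Zbtb1. Of all stretches of 250 bases before a RefSeq start, 82.9% held GTCT and 9.59% held GGCGCC. A match to these letters is a description of the sequence, and binding was not analysed here.

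RefSeq promoter windows (250 bases before to 50 after the start, table of GRCm38.p6, each found by exact match in GRCm39) were at hand for 33 of the 38 members, 46 windows in all. GGCGCC was in 14 of them (30.4%, against 11.9% of all 32851 windows), GTCT in 37 (80.4%, against 88%) and both in 11 (23.9%, against 9.5%). The member windows were also richer in G and C, with a median of 63% against 52.7%. RefSeq starts Zbtb1 254 bases downstream of the deposited start, so that its window lies in the deposited first exon, and this window held 1 copy of each element. These are shown with 30 bases each, the element in capitals.
Zbtb1, GGCGCC, chr12:76417090-76417119, plus strand: cgccgccgcccgGGCGCCcgcgctgcgggc
Zbtb1, GTCT read as AGAC, chr12:76417247-76417276, plus strand: cgaactggtgggcAGACccggagtcgccgc
The RefSeq start of Zbtb2 is the deposited start, and its window held neither element, so the 2 genes that rose did not share either of them there.

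The coverage of single exons was higher after BMP6 along both genes, though not by the same fold. Zbtb1 has 1 deposited transcript of 2 exons, and its coding sequence (76432016 to 76434154) lies wholly in the second. That exon of 11725 bases, on the TPM scale, stood at 10.1 and 13.5 after BMP6 and at 3.55 and 4.04 in controls, 2.84-fold and 3.35-fold higher within the pairs. The first exon of 465 bases was lower throughout, at 4.00 and 4.19 against 1.62 and 1.54, and 2.47-fold and 2.72-fold higher. In Zbtb2 the 3′ exon of 2777 bases, which both deposited transcripts share and which holds most of the coding sequence (4318483 to 4319851), stood at 14.0 and 17.5 after BMP6 and at 5.59 and 5.66 in controls. It was 2.51-fold and 3.1-fold higher. All 4 exons of Zbtb2 were higher after BMP6 in both pairs, between 1.31-fold and 3.57-fold, and coverage fell towards the 5′ end, to at most 1.43 in the first exons. The share of the longer Zbtb2 transcript went from 49.7% to 85.4% between libraries without following the treatment.

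**Figure D2:**
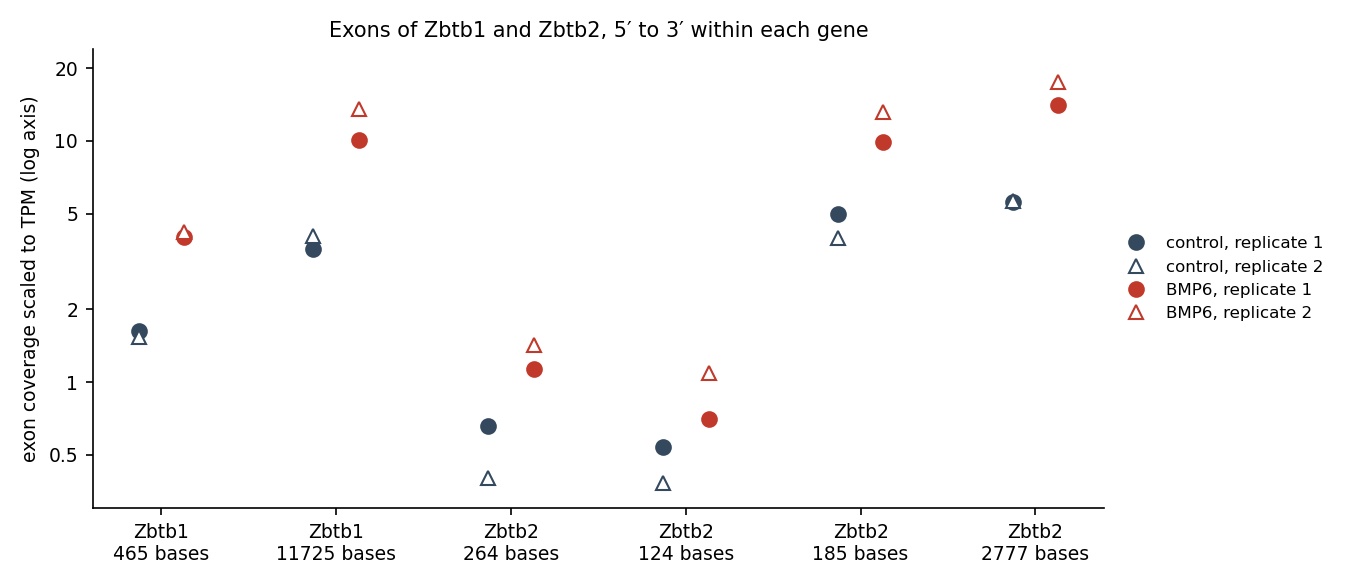
Coverage of each deposited exon of Zbtb1 (2 exons) and Zbtb2 (4 exons) scaled to TPM, on a log axis, ordered from 5′ to 3′ within each gene and named by exon length. Points are single libraries (n = 2 per group), and in all 6 exons both BMP6 libraries lie above both controls.

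Genes next to or similar to Zbtb1 and Zbtb2 were examined because the libraries were unstranded and reads that align to several places were counted in full. Zbtb25 starts 663 bases from Zbtb1 in the deposited annotation and runs the other way. In GENCODE M39 the genes are longer, Zbtb1 from 76414048 to 76448862 and Zbtb25 from 76393982 to 76417168, so that they overlap on opposite strands and the 250 bases printed for Zbtb1 lie within both. Other entries within 10 kb of Zbtb1 were Hspa2, with 5.60 and 7.34 TPM after BMP6 and 6.65 and 6.37 TPM in controls (log2 fold change -0.02), and 2 entries at no more than 0.409 TPM. Near Zbtb2, Akap12 had 1.04 and 2.19 TPM against 1.06 and 1.5 TPM (log2 fold change 0.16), and Gm21781 was at no more than 0.407 TPM. None of the tested neighbours approached the difference of Zbtb1 or Zbtb2. The Zbtb1 transcript shares stretches of at least 100 bases at 95% identity or more with 7 other tested genes, over 2.98% of its length. The longest is 129 identical bases in Zbtb25 of GENCODE M39. It is the place where these genes overlap there (76417040 to 76417168) and not a second copy. The deposited Zbtb25 ends at 76416376 and does not hold it. Zbtb1 also shares 953 identical bases with 4930426I24Rik of GENCODE M39. The deposited entry of that name, untested, stood at 0.0757 and 0.0892 TPM after BMP6 and at 0.375 and 0.129 TPM in controls. It lies 5800 bases beyond the deposited Zbtb1, on the opposite strand (76449525 to 76450756). Whether it holds the shared stretch was not tested, so its TPM may not measure that stretch. Zbtb2 shares none with a tested gene, but 1346 bases with Gm13294 on chromosome 2 at 96.4% identity. Gm13294 stood at 0.843 and 1.05 TPM after BMP6 and at 0.352 and 0.390 TPM in controls, far under Zbtb2 and also higher after BMP6. How many reads the pair shares was not tested.

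The proteins of Zbtb1 and Zbtb2 were compared next. Translated from the longest coding sequence in GENCODE M39, they have 713 and 514 residues and 5 and 2 matches to the C2H2 finger pattern, against medians of 608 residues and 4 matches over the 38 members (420 to 1258 residues, 1 to 14 matches). Over the first 130 residues, which hold the BTB domain in most members, aligned positions of Zbtb1 and Zbtb2 were 42.6% identical. Each was the other's second closest member by this measure, after Zbtb25 for Zbtb2 (63.8%) and after Zbtb34, a member below the filter, for Zbtb1 (43%). The median identity of the other members was 32.1% to Zbtb1 and 34.5% to Zbtb2.

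The next highest differences were those of Zbtb7c, Zbtb8a, Zbtb25, Zbtb18 and Zbtb38, each higher after BMP6 in both pairs and none called. Zbtb7c, a repressor of the p21 gene, had 7.80 and 6.60 TPM after BMP6 and 4.70 and 4.37 TPM in controls, without overlap. This was 1.59-fold in mean TPM and 0.56 on the log2(TPM + 1) scale, with SE 0.15 and, in limma, adjusted p of 0.991 without and 0.0499 with the block. Most of its reads lay in its 2 last exons, which were 1.5-fold to 1.71-fold higher. The entry 2900057B20Rik, at up to 5.21 TPM, overlaps the span of Zbtb7c on the opposite strand. Its part in the reads of Zbtb7c was not tested. Zbtb25, the divergent neighbour of Zbtb1, had 26.4 and 27.4 TPM after BMP6 and 20.2 and 20.8 TPM in controls. The groups were tight and did not overlap, and the difference was 0.37 and 0.38 within the pairs (adjusted p = 1.00 without and 0.0893 with the block), well short of the 1.28 and 1.52 of Zbtb1.

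Zbtb8a had 9.55 and 10.3 TPM against 7.39 and 6.95 TPM, again without overlap (log2 fold change 0.42, SE 0.13). Zbtb18, a repressor of Id genes in developing brain and muscle, had 7.995 and 11.7 TPM against 6.04 and 8.70 TPM. Here the replicates differed more than the groups, which overlapped, yet the pairs gave 0.35 and 0.39. Zbtb38 had 29.3 and 38.7 TPM against 26.9 and 29.2 TPM, and BMP6 replicate 1 was barely above control replicate 2. Adjusted p was 1.00 for each of these 3 without the block and 0.133, 0.162 and 0.293 with it (limma, Benjamini-Hochberg).

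At the other end, Zbtb22 had the lowest difference, with 3.16 and 3.98 TPM after BMP6 and 4.10 and 5.37 TPM in controls. Its BMP6 libraries were both under the controls, though by little, and the pairs gave -0.30 and -0.35 (adjusted p = 1.00 without and 0.282 with the block). Zbtb3 had 2.00 and 1.76 TPM against 2.46 and 2.17 TPM. Zbtb49, an activator of the p21 gene, had 2.85 and 2.72 TPM against 3.23 and 3.42 TPM, and Zbtb14 had 4.98 and 5.16 TPM against 5.64 and 5.99 TPM. In these 3 the groups did not overlap, with log2 fold changes of -0.20, -0.19 and -0.17, and none passed even the unadjusted p in either fit. Zbtb5, another p21 repressor, overlapped between groups, with 4.77 and 5.11 TPM against 4.91 and 5.78 TPM.

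Of the 5 most abundant entries, Zbtb38 and Zbtb25 are given above. Zbtb20 had 26.2 and 27.5 TPM after BMP6 and 23.8 and 25.7 TPM in controls (log2 fold change 0.12). The pseudogene Ndufs5-ps, at up to 276 TPM, overlaps its span on the same strand, and shared reads were not tested. Zbtb17 had 15.8 and 18.8 TPM against 16.5 and 16.9 TPM, lower in one pair and higher in the other. Zbtb9 had 11.5 and 12.5 TPM against 11.01 and 10.3 TPM (log2 fold change 0.16). All 3 intervals included 0, in both fits.

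**Figure D3:**
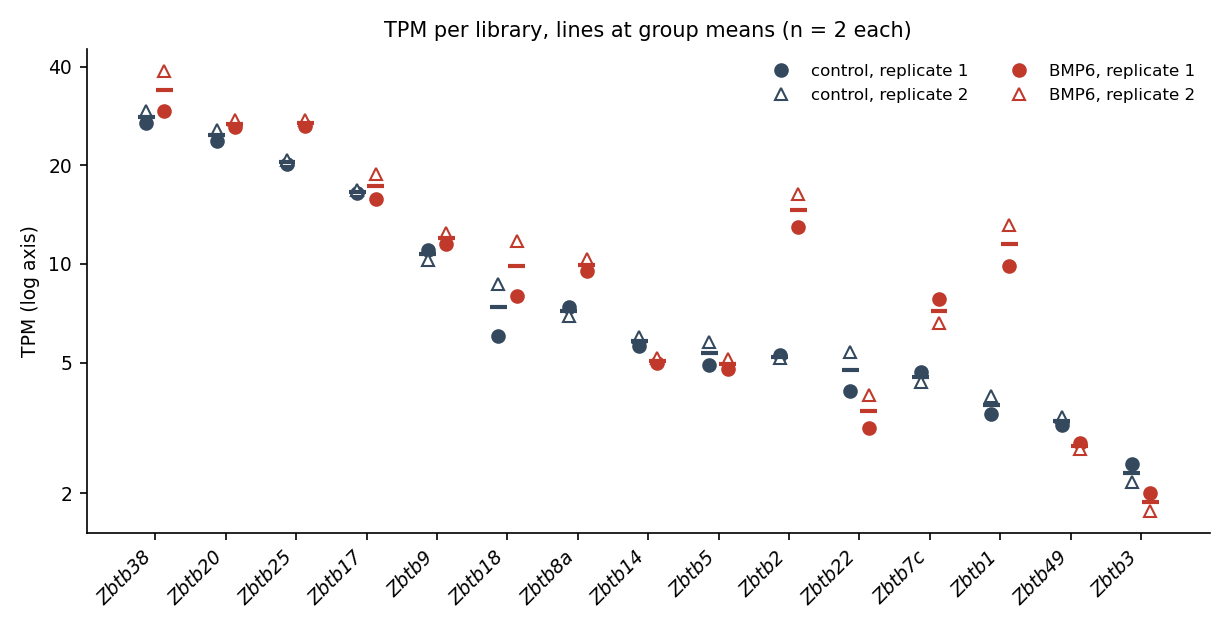
TPM of the 15 members described by library, on a log axis, ordered by mean level in controls, with circles and triangles for replicates 1 and 2 and short lines for group means (n = 2 each). Zbtb2 (12.9 and 16.4 against 5.27 and 5.18) and Zbtb1 (9.85 and 13.2 against 3.48 and 3.94) show the widest gaps between groups.

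The remaining 12 tested members were Zbtb4, Zbtb6, Zbtb7a, Zbtb21, Zbtb24, Zbtb41, Zbtb42, Zbtb43, Zbtb44, Zbtb45, Zbtb46 and Zbtb48. Their levels ranged from 0.963 to 13.2 TPM and their log2 fold changes from -0.08 (Zbtb46) to 0.18 (Zbtb4). In both pairs 7 were higher and 1 was lower, and in 4 the pairs went opposite ways. Over all 27 tested members, 16 were higher in both pairs (59.3%, against 36.7% of genes) and 6 were lower in both (22.2%, against 24.7%). In 11 members both BMP6 libraries were above both controls (40.7%, against 17.4% of genes), and in 4 both were below (14.8%, against 10.8%). The median log2 fold change of the other 25 tested members was 0.12, with 0.09 in each pair, against 0.02 over all genes tested.

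By the roles assigned to the members, the 2 genes that rose belong to different groups. Among the 7 members known from blood and lymphocyte lineages, 4 were tested, and Zbtb7a, Zbtb24 and Zbtb46 had log2 fold changes of -0.01, 0.13 and -0.08 beside 1.40 for Zbtb1. The others of that group, Zbtb7b (ThPOK, of helper T cells), Zbtb16 (PLZF) and Zbtb32, were below the filter. All 5 members tied to p53, p21 and the cell cycle were tested, and they spread from -0.19 (Zbtb49) over -0.09 (Zbtb5), 0.05 (Zbtb17) and 0.56 (Zbtb7c) to 1.32 (Zbtb2). The 2 tested members that bind methylated DNA had 0.18 (Zbtb4) and 0.26 (Zbtb38), and the telomere protein Zbtb48 had 0.11. The 4 members tied to nervous system and muscle ranged from -0.03 (Zbtb45) to 0.37 (Zbtb18).

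Of the 11 members below the filter, Zbtb8b was listed at 0 in all 4 libraries. The other 10, which were Zbtb7b, Zbtb10, Zbtb12, Zbtb16, Zbtb32, Zbtb33, Zbtb34, Zbtb37, Zbtb39 and Zbtb40, had means of 0.102 to 0.853 TPM and at most 1.12 TPM in any library. Zbtb33 (Kaiso, which binds methylated DNA) had 0.578 and 0.998 TPM after BMP6 and 0.575 and 0.744 TPM in controls. Zbtb16 had 0.579 and 0.256 TPM against 0.740 and 0.364 TPM. No difference was tested for these members.

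The merging of transcripts into entries moved some family genes. The entry named Zbtb6 also holds Zbtb26, which gave 19% to 29.5% of its TPM, and the entry named Zbtb9 also holds Ggnbp1 and Gm50253, with Zbtb9 itself at 85.3% to 91.6%. The Zbtb11 transcript is in the entry named Rpl24, where it had 5.19 and 5.81 TPM after BMP6 and 5.66 and 6.07 TPM in controls. The gene that GENCODE M39 calls Zbtb47 appears as Zfp651, with 1.14 and 0.826 TPM against 1.07 and 1.02 TPM. Neither of these last 2 differed between groups by more than the spread within them.

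Genes related to the family by structure or function were set beside it. Of 8 BTB zinc finger genes that carry other names, 6 were tested, Bcl6, Patz1, Hic2, Gzf1, Mynn and Zfp131, and their log2 fold changes ran from -0.24 to 0.08. None was called, and none passed an unadjusted p under 0.05 in limma or voom, with or without the block. Of 14 partners of BTB domains, 11 were tested, and 0 were called in limma. Bcor, which encodes a corepressor bound by BCL6, was the 1 that passed the unadjusted p, with 4.02 and 4.72 TPM against 3.08 and 3.17 TPM (log2 fold change 0.38, adjusted p = 1.00 in limma). Bcor was also past the adjusted p in voom with the block. The deacetylases Hdac1, Hdac2 and Hdac3 had 0.03, 0.04 and -0.04, and Ncor1 had -0.05.

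Cell cycle genes known as targets of family members were measured in the same libraries. Cdkn1a (p21), which Zbtb2, Zbtb5 and Zbtb7c are known to repress, had 1468 and 1741 TPM after BMP6 and 1357 and 1586 TPM in controls, overlapping, with 0.11 and 0.13 within the pairs. Cdkn2b had 34.1 and 35.5 TPM against 40.6 and 42.6 TPM (log2 fold change -0.25), and it alone of the 6 tested passed the unadjusted p in limma without the block. With the block Cdkn1a and Mdm2 passed it as well, both higher (adjusted p = 0.231 and 0.282). Trp53 had -0.09. With Ccnd1, Cdkn1c and Mdm2 included, 0 of 6 were called or past the adjusted p, in limma or voom, with or without the block. For scale, 5 of 6 BMP target genes (Id1, Id2, Id3, Smad7 and Atoh8) were called higher, with a median log2 fold change of 2.13 over the 6, and the 6th, Smad6, was past the adjusted p with the block. Id2, at 1.26, was the 1 target under the values of Zbtb1 and Zbtb2.

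**Figure D4:**
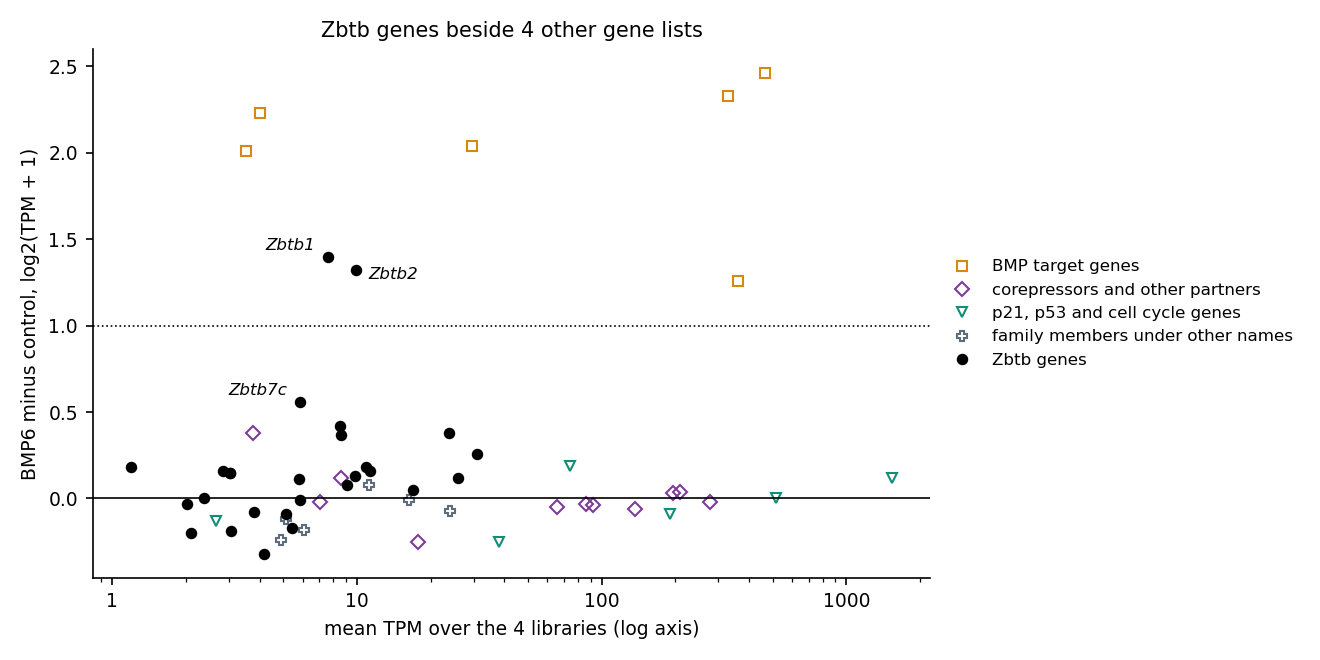
Log2 fold change on the log2(TPM + 1) scale against mean TPM over the 4 libraries (log axis) for the 27 tested Zbtb genes and for 4 other lists, 1 point per gene. Zbtb1 (1.40) and Zbtb2 (1.32) lie within the range of the BMP targets (1.26 to 2.46), and of all other genes shown Zbtb7c (0.56) is the highest.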

How the data were processed

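Unstranded, amplified cDNA libraries without molecular identifiers were read as pairs of 100 bases. As the study's methods state, the authors used STAR 2.7.11a for alignment to GRCm39 (GENCODE M32), and assembled, merged and quantified transcripts with StringTie 2.2.1. Per the file headers, the correction for reads aligned to several places was switched off. The authors deposited TPM per gene, and per transcript and exon a coverage signal, the mean depth of aligned bases, not scaled to library size. Deposited FPKM was not used, since it is proportional to TPM within a library. Coverage was multiplied by transcript length and divided by 100 to rebuild read numbers, which count aligned bases and not molecules.

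The files hold no counts, so limma 3.58.1 (R 4.3.3, lmFit and eBayes with trend, two-sided) was run on log2(TPM + 1) without a block, over the 13128 entries whose mean TPM reached 1, with Benjamini-Hochberg adjustment over all of them. This scale understates changes of low genes. The study's thresholds defined a call, which are an adjusted p below 0.1 with a doubling (fold change 2) or more, or a fold change of 0.5 or less. Entries without a name, predicted genes, RIKEN clones, microRNAs, opposite-strand genes and pseudogenes, recognised by their names following the study's methods, stayed in the fit and out of the calls, leaving 10645. With 2 libraries per group, the smallest two-sided p of an exact permutation test is 0.333, so none was used. The limma fit without a block was tested on simulated data, with noise drawn independently for each library. The changes planted there were larger than those of Zbtb1 and Zbtb2, so smaller changes were not covered. Same-numbered libraries share a batch by the labels, and the deviations of such a pair from its groups' means correlated across genes (0.563), so the replicate block was an alternative, as were other pseudocounts, filters, quantile normalization, voom on rebuilt reads and leaving out each library.

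Values by library are given for Zbtb1, Zbtb2, members with an unadjusted p under 0.05 in either fit, and the 5 highest and 5 lowest fold changes and 5 highest levels. Members and lists were chosen with earlier results of these data known. Exons were scaled by each library's ratio of TPM to coverage. Proteins were translated and aligned with Biopython 1.88 and shared stretches found with BLAST+ 2.17.0.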

Additional observations from a re-analysis of the deposited data

How the results depend on the processing

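Zbtb1 and Zbtb2 kept their direction under all 13 alternatives, with adjusted p from 1.52e-05 to 0.71 for Zbtb1 and from 0.000192 to 0.648 for Zbtb2, and the call was lost in 6 and 5 of them. With a pseudocount of 5 the log2 fold changes were 0.92 and 0.94, 0 members and 15 genes were called higher, and only Zbtb2 was past the adjusted p (0.0939). Without a filter on low values (1.40 and 1.32) 0 genes were called. With a mean TPM of at least 5, Zbtb1 (1.40) was lost, leaving 1 member among 15 genes, and in eBayes without a trend (1.40 and 1.32) 0 members among 12 genes were called. The cause of these changes was not tested. With the replicate block 36 genes were higher and 1 lower, and the block changed the call of no member. In voom with the block 56 were higher and 6 lower. Leaving out 1 library, where the lone library of a group was assumed to vary like the others, gave 1.21 to 1.59 for Zbtb1 and 1.16 to 1.48 for Zbtb2, 0 to 2 members called higher, 17 to 30 genes higher and 1 to 7 lower. Of 166 values of the 13 other named members, 164 kept direction and the side of the call, by fold and adjusted p together. Without regard to fold, Zbtb7c passed the adjusted p in limma with the block (0.0499) and in voom with the block (0.0206). Zbtb25 passed it in limma with the block (0.0893). Zbtb5 ranged from -0.19 without control replicate 1 to 0.01 without control replicate 2, and Zbtb17 from 0.17 without BMP6 replicate 1 to -0.07 without BMP6 replicate 2. In each library a tested member had at least 212 rebuilt reads.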
